A study of Mus musculus with 24 samples.

Results

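The collagen genes are the 43 genes of the array whose symbol is Col followed by a type number and an alpha chain number, out of 34797 genes measured. They were found by this symbol pattern alone and carry 68 of the 55681 probes that are not controls. Each gene was represented by its brightest probe over the 24 arrays, and the remaining probes were used to see whether a difference held along the transcript. By the protein encoded, 11 of the genes are fibrillar collagens, 6 are the type IV collagens of basement membranes, and 26 are other types.

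Mammary tissue RNA was taken from 24 female mice irradiated or sham treated at 8 to 9 weeks of age, and each sample was hybridised in 1 colour to its own Agilent array. BALB/c, an inbred laboratory strain, was collected 2, 4 or 8 weeks after a single whole-body X-ray dose of 10 cGy, here called low-dose ionizing radiation (LDIR), or after sham treatment. SPRET/EiJ, an inbred strain derived from the wild species Mus spretus, was collected at 4 weeks after LDIR or sham. This gives 8 groups with n = 3 each, and the questions were how collagen transcripts differed between the strains, after LDIR and with time.

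Collagens are secreted proteins in which 3 chains wind into a triple helix, and the helix needs a glycine in each repeat of its chain. Fibrillar collagens (types I, II, III, V, XI, XXIV and XXVII) assemble into the fibrils that give the mammary stroma its tensile strength, and fibroblasts are their main source. Type IV chains form the sheet that underlies ducts, vessels and fat cells. Among the others, type VI makes beaded microfibrils, the fibril-associated collagens (FACITs) decorate fibrils, type VII anchors epithelium, types XV and XVIII are the multiplexins of basement membrane zones, and types XIII, XVII, XXIII and XXV span the cell membrane.

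The glycine repeat can be read in 2 of the 68 collagen probes, which lie in coding sequence of the helix. They are shown because the first of them, of Col15a1, carried the clearest change with time. The 6 glycine codons of each are in capitals.
Col15a1: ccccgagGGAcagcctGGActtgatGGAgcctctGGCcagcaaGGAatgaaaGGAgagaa
Col25a1: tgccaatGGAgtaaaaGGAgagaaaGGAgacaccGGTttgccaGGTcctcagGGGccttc
The Col15a1 probe lies at chr4:47283786-47283845 and the Col25a1 probe at chr3:130270497-130270556, both on the plus strand of mm9, the build given in the files. The probe letters are those printed in the scanner files.

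Levels are given as log2 of the background-subtracted signal minus the 75th percentile of that array, so that 0 is that percentile. On this scale the levels of different probes cannot be set against each other, because probes differ in how well they bind. A signal well above background, as the scanner software defines it, was found on all 24 arrays for 30 of the 43 genes, which are 8 fibrillar, 5 type IV and 17 other collagens. Of the remaining 13, Col10a1 of growth plate cartilage was above background on 0 arrays and Col2a1, the main cartilage collagen, on 1. The others were Col24a1 (6 arrays), Col4a3 (9), Col6a4 and Col13a1 (11 each), Col6a5 and Col6a6 (13 each), Col28a1 (14), Col9a3 (15), Col9a1 (19), Col19a1 (21) and Col11a1 (23). Where a group was above background on no array, a fold is given only as a bound.

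The tissue label was checked against cell type markers. All 10 fibroblast, 8 white adipocyte and 8 mammary epithelium markers were above background on every array, while the cartilage genes Hapln1, Matn1 and Matn3 were above background on none. By lymphocyte genes a set of 3 arrays stood apart: replicate A of 8-week sham, replicate B of 8-week LDIR (both BALB/c) and replicate A of SPRET/EiJ LDIR. Their summed signal of 10 lymphocyte genes, in units of the array's 75th percentile, was 151, 200 and 168, against at most 23 on the other 21 arrays. The mean level of the 8 fibrillar collagens above background on all arrays, centred on each gene's mean over the 24 arrays, was -0.78, -0.80 and -0.55 on these arrays and -0.55 to 0.60 on the other 21, where 4-week sham BALB/c replicate B had the lowest value. Some results that use these 3 arrays are also given without them, but others, among them the pathway genes, are not. Summed signals of 8 skeletal muscle markers also differed widely between arrays. They ran from 2.31 to 654 in 2-week sham, 2.59 to 331 in 2-week LDIR, 53.6 to 202 in 8-week sham and 2.93 to 1020 in 8-week LDIR BALB/c. In SPRET/EiJ they ran from 1.58 to 6.31 after sham and 0.94 to 1.92 after LDIR. The part of muscle in the collagen differences was not tested. In bulk tissue, fewer cells of a type and less RNA per cell cannot be told apart.

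**Figure D1:**
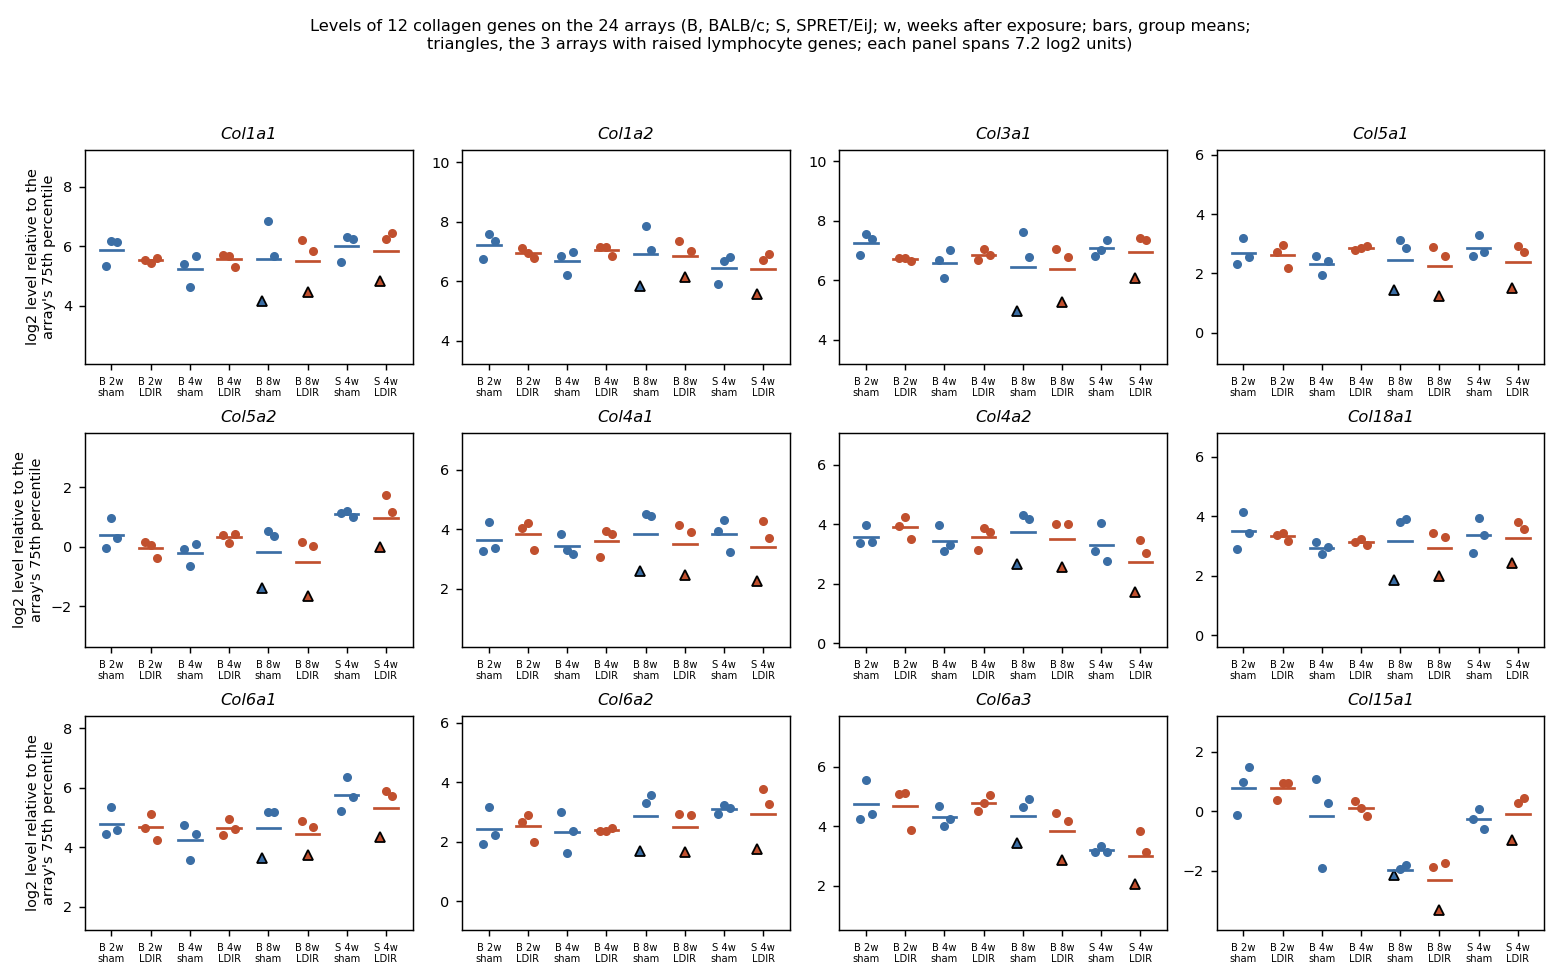
Log2 level of 12 collagen genes (vertical axis, relative to each array's 75th percentile) on the 24 arrays by group (horizontal axis), with sham in blue, LDIR in red to orange and a bar at each group mean. Triangles mark the 3 arrays with raised lymphocyte genes, on which fibrillar genes such as Col1a1 and Col3a1 are among the lowest values, for example 4.16 and 4.95 on 8-week sham replicate A.

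Type I and type III collagen, the bulk of the fibrils, varied more between mice of a group than between groups. Col1a1, which encodes the alpha 1 chain of type I collagen, had levels of 5.41, 4.62 and 5.66 in sham BALB/c and 5.46, 6.31 and 6.26 in sham SPRET/EiJ at 4 weeks. Over all 24 arrays it ran from 4.16 to 6.85, and both of these extremes were in 8-week sham BALB/c. Col1a2, the alpha 2 chain, ran in the same samples from 5.84 to 7.87, and Col3a1, the single chain of type III collagen, from 4.95 to 7.63. The 8-week sham and LDIR groups had the widest spread, with SDs of 1.35 and 0.93 for Col1a1, and each of them holds an array with raised lymphocyte genes.

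Chains of several collagen molecules moved together from mouse to mouse, with Col4a5 and Col4a6 as an exception. So did chains of different molecules, such as Col1a1 and Col3a1. After each group's mean was removed, Pearson's r over the 24 arrays was 0.98 between Col1a1 and Col1a2, 0.96 between Col1a1 and Col3a1, 0.97 between Col4a1 and Col4a2, 0.96 between Col5a1 and Col5a2 and 0.94 between Col6a1 and Col6a2. Without the 3 arrays that stood apart these values were 0.95, 0.88, 0.92, 0.80 and 0.83. The other type IV pairs were looser, with r of 0.70 for Col4a3 and Col4a4 and -0.19 for Col4a5 and Col4a6. High values were not particular to chains of 1 molecule. For Col4a2 and Col5a3 r was 0.96, and for Col5a1 and Col6a1 it was 0.95. Without the 3 arrays these were 0.90 and 0.92. Among all pairs within a class, the median r was 0.73 over 28 fibrillar pairs, 0.11 over 10 type IV pairs and 0.23 over 136 pairs of the other types, and it was 0.30 over 261 pairs between classes. Without the 3 arrays these medians were 0.37, -0.01, 0.11 and 0.19. The points share arrays and their scaling, so these correlations describe the 24 samples.

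Col9a2, Col9a3, Col7a1 and Col4a5 were also correlated with each other. Col9a2 and Col9a3, chains of the FACIT type IX, had r of 0.91 (Col9a3 was above background on 15 arrays), and Col9a2 went with Col7a1, the anchoring fibril collagen, at 0.92 and with Col4a5 at 0.93. Without the 3 arrays these were 0.86, 0.87 and 0.90. With Col1a1, Col4a5 had r of 0.72, Col7a1 0.60 and Col9a2 0.60 over all arrays, and 0.24, 0.11 and 0.17 without the 3. Col11a2, a fibrillar gene by sequence, ran against type I at -0.82 over all arrays and at -0.01 without those 3, so its opposition rested on them.

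**Figure D2:**
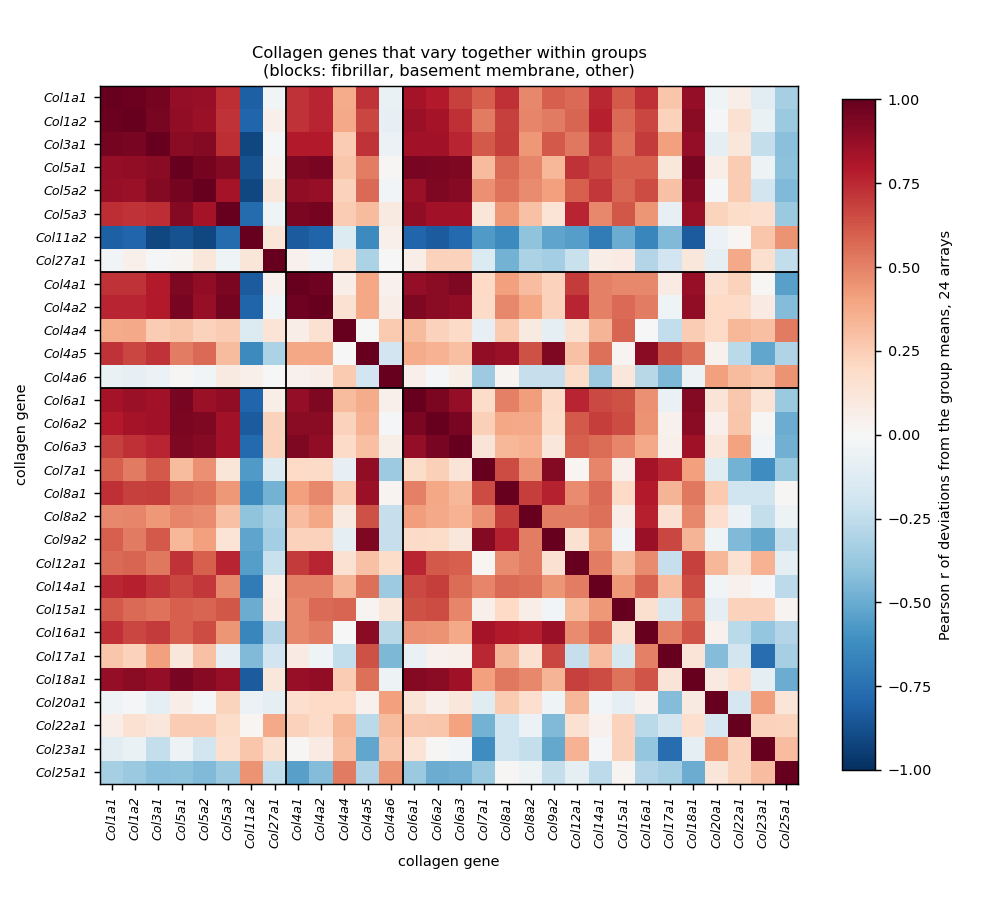
Pearson's r (colour) between the deviations of 30 collagen genes from their group means over 24 arrays, with genes ordered by class on both axes. Over all 24 arrays the genes of types I, III and V and the pair Col4a1 and Col4a2 have high values with each other. Without the 3 arrays with raised lymphocyte genes, r of Col1a1 was 0.04 with Col4a1, 0.22 with Col4a2 and 0.23 with Col5a3. Between Col5a1 and Col4a1 it was still 0.77. Col1a1 and Col1a2 reach 0.98, and the fibrillar genes Col11a2 and Col27a1 lie at -0.82 and -0.03 with Col1a1. Col9a2, Col7a1 and Col4a5 have high values with each other and 0.60 to 0.72 with Col1a1.

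The promoters of Col1a2 and Col3a1, genes that moved together, are shown because they differ in their base composition and motifs. They are the 250 bases before the RefSeq start on GRCm38.p6, at chr6:4505368-4505617 and chr1:45311288-45311537, both on the plus strand, with the CCAAT box, the TATAAA box and the GGGCGG box in capitals on either strand.
Col1a2: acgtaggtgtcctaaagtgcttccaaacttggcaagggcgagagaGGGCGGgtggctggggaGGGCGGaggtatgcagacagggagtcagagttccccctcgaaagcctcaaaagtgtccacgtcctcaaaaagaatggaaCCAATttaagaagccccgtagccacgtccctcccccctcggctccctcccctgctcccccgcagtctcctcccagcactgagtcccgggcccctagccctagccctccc
Col3a1: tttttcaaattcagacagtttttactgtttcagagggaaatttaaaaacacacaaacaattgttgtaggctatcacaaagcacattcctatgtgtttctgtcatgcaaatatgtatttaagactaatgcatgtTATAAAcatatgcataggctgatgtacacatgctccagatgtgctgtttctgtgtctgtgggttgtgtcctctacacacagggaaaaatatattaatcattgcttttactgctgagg
Windows were found for 35 of the 43 genes (38 windows). The GGGCGG motif or its reverse complement CCGCCC was in 57.9% of the collagen windows and in 32.7% of the 32851 windows of all genes. The CCAAT motif, with its reverse complement ATTGG, was in 34.2% against 33.8%. The TATAAA motif, with its reverse complement TTTATA, was in 13.2% against 12.4%. A match is a run of letters and is no evidence that a factor binds there. Col4a1 and Col4a2, whose r was 0.97, are read in opposite directions from starts 21 bases apart on chromosome 8. Col4a5 and Col4a6, with r of -0.19, start 1343 bases apart on the X chromosome. Col6a1 and Col6a2, with r of 0.94, start 102640 bases apart on the same strand of chromosome 10. Col1a1 and Col1a2, with r of 0.98, lie on chromosomes 11 and 6. A link between the distance of starts and r was not tested.

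At 4 weeks after sham treatment, 4 collagen genes passed the strain thresholds (unadjusted p under 0.001 and more than 1.5-fold), where 9.21% of all genes did. By limma's test with Benjamini-Hochberg adjustment over all probes, 13 collagen genes had an adjusted p under 0.05, where 19.7% of all genes did. Of these, 7 were higher in BALB/c (10.3% of all genes) and 6 lower (9.44%). The groups did not overlap for 18 collagen genes, against 40.5% of all genes. The median difference over the collagens was -0.22 (BALB/c minus SPRET/EiJ) and that over all genes -0.08. The former turned to 0.06 without BALB/c sham replicate B and to 0.12 without SPRET/EiJ sham replicate B. The methods' t-test passed 0 collagen genes at the strain thresholds. Leaving out 1 array at a time gave 1 to 2 genes past the thresholds and 6 to 9 by adjusted p, with 6 without SPRET/EiJ sham replicate A, 7 without BALB/c sham replicate B and 8 without SPRET/EiJ sham replicate B. Col4a3, Col5a2, Col9a3, Col20a1 and Col23a1 kept an adjusted p under 0.05 in each of these 6 fits.

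Of the 4 genes past the thresholds, Col23a1 and Col20a1 were measured in both strains. Col23a1, a membrane-spanning collagen, had levels of -2.77, -3.25 and -2.65 in sham BALB/c and -0.53, 0.34 and -1.01 in sham SPRET/EiJ. The lowest SPRET/EiJ value lay above the highest BALB/c value, and the difference was -2.49 (SE 0.38; adjusted p = 0.00668, limma), or 5.62-fold higher in SPRET/EiJ. Its 2 other probes gave -2.55 and -2.48. Col20a1, a FACIT, had levels of -0.91, -0.45 and -0.92 in sham BALB/c and -2.58, -2.06 and -2.31 in sham SPRET/EiJ. All BALB/c values were the higher ones, by 1.56 (SE 0.22; adjusted p = 0.00551, limma) or 2.94-fold. A probe nearer the 3′ end of Col20a1 gave 4.34, also higher in BALB/c but by a much larger step.

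The other 2 genes past the thresholds were measured in 1 strain alone. Col9a3 had levels of -5.09, -3.38 and -3.73 in sham BALB/c and was above background on no sham SPRET/EiJ array, where the signals were -7.39, -7.3 and -7.41. The bound was at least 2.47-fold in favour of BALB/c (fitted difference 3.30, SE 0.44; adjusted p = 0.0041, limma). Col4a3, a type IV chain best known from the kidney glomerulus, had levels of -4.14, -3.95 and -4.1 in sham SPRET/EiJ and was above background on no sham BALB/c array. The bound was at least 2.69-fold in favour of SPRET/EiJ (fitted difference -1.92, SE 0.32; adjusted p = 0.00895, limma).

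Col9a1, the partner chain of Col9a3, was higher in sham BALB/c, with levels of -3.24, -2.17 and -2.06 against -4.09, -6.27 and -5.63. The fitted difference was 2.84 (SE 0.61; adjusted p = 0.0232, limma), but only 1 of the 3 SPRET/EiJ arrays was above background. A probe in the 5′ part of the transcript gave -0.41 (adjusted p = 0.573), so the probes of this gene disagreed. Col12a1, a FACIT of dense connective tissue, was higher in SPRET/EiJ, at 0.08, 1.83 and -0.24 against -1.74, -1.89 and -1.13 (difference -2.14, SE 0.56; adjusted p = 0.0447, limma). Summed mammary epithelium markers, in units of the 75th percentile, were 145 to 299 on the sham BALB/c and 26.8 to 140 on the sham SPRET/EiJ arrays at 4 weeks. The sums were 37.4 to 44.9 against 198 to 598 for Schwann cell markers and 35.6 to 43.2 against 17.6 to 20.2 for pericyte and smooth muscle markers. The part of these markers in the strain differences was not tested.

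Type VI chains lay on opposite sides between the strains, and the fitted values of the 3 type V chains were lower in BALB/c. Col6a1, the alpha 1 chain of type VI, had levels of 4.74, 3.58 and 4.44 in sham BALB/c and 5.23, 6.36 and 5.7 in sham SPRET/EiJ, a difference of -1.51 (SE 0.41; adjusted p = 0.0477, limma). Col6a3, the large alpha 3 chain of the same microfibril, went the other way at 4.68, 4.03 and 4.26 against 3.15, 3.35 and 3.13, a difference of 1.11 (SE 0.22; adjusted p = 0.0167, limma). Col6a2 differed by -0.79 on its brightest probe, with an adjusted p of 0.188. On its other probe the strains did not overlap, at -0.87, -1.14 and -0.88 in sham BALB/c against -0.09, 0.1 and 0.39 in sham SPRET/EiJ. With the mean over all probes of the gene, Col6a2 had an adjusted p under 0.05 by limma. The strains overlapped in neither Col6a1 nor Col6a3. Of the 6 fits that left out 1 array, 0 kept an adjusted p under 0.05 for Col6a1 and 4 kept it for Col6a3. Col5a2, a minor fibril chain that helps to set fibril diameter, had levels of -0.08, -0.66 and 0.08 in sham BALB/c and 1.13, 1.19 and 1.01 in sham SPRET/EiJ (difference -1.33, SE 0.23; adjusted p = 0.0113, limma). Its partner Col5a1 differed by -0.54, with an adjusted p of 0.228. Col5a3, the third type V chain, had levels of 4.62, 3.75 and 3.79 against 5.58, 6.76 and 4.74, without overlap (difference -1.64, SE 0.53; adjusted p = 0.085, limma).

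Another 4 genes had an adjusted p under 0.05. Col16a1, a FACIT, was higher in BALB/c by 1.26 (SE 0.29; adjusted p = 0.0277, limma), and its 2 other probes with signal gave 1.07 and 1.25. Col11a2 was higher in BALB/c by 0.91 (adjusted p = 0.0295) and Col4a6 higher in SPRET/EiJ by 0.64 on its brightest probe (log2 difference -0.64, adjusted p = 0.0405), while another Col4a6 probe gave -3.04. Col6a4 was higher in BALB/c by a fitted 1.83 (adjusted p = 0.0168), but was above background on 1 sham BALB/c and 0 sham SPRET/EiJ arrays. The main fibrillar and basement membrane chains did not pass: the difference was -0.78 for Col1a1 (SE 0.36, adjusted p = 0.198), 0.22 for Col1a2 (adjusted p = 0.678), -0.49 for Col3a1 (adjusted p = 0.309), -0.37 for Col4a1 (adjusted p = 0.505) and 0.15 for Col4a2 (adjusted p = 0.821). Col18a1, the multiplexin whose end fragment is endostatin, differed by -0.42 (adjusted p = 0.439).

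After LDIR, in other mice of the same age at 4 weeks, 3 collagen genes passed the thresholds (5.79% of all genes), 0 of them by the methods' t-test, and 6 had an adjusted p under 0.05 (11.2% of all genes). The groups did not overlap for 13 collagen genes, where 35% of all genes did not. All 6 genes, Col4a3, Col9a1, Col9a3, Col12a1, Col20a1 and Col23a1, were among the 13 of the sham comparison, with the same direction. Of the genes past the thresholds, Col4a3 and Col9a3 were shared, which is 50% of the sham genes and 66.7% of the LDIR genes. Col23a1 had levels of -2.85, -2.25 and -3 in LDIR BALB/c and -1.56, -0.5 and -0.47 in LDIR SPRET/EiJ, again without overlap (difference -1.86, SE 0.38; adjusted p = 0.0272, limma). Col20a1 had levels of -1.24, -0.88 and -1.04 against -3.19, -2.28 and -2.33 (difference 1.55, SE 0.31; adjusted p = 0.0256). In BALB/c, Col9a1 was higher by at least 6.57-fold and Col9a3 by at least 1.24-fold, and in SPRET/EiJ Col4a3 was higher by at least 2.5-fold. The 5′ probe of Col9a1 gave a difference of 0 (SE 0.22). The median difference over the collagens was 0.18, and that over all genes -0.06.

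The LDIR strain calls depended on single arrays. Without SPRET/EiJ LDIR replicate A, the array with raised lymphocyte genes, 5 genes passed the thresholds and 11 had an adjusted p under 0.05. The adjusted count was 0 without BALB/c LDIR replicate A or C, 1 without replicate B and 4 without SPRET/EiJ replicate B or C. The array probes were designed on a reference mouse sequence, so a lower transcript level in SPRET/EiJ and a weaker match of the probe to its sequence cannot be told apart. All SPRET/EiJ arrays lay on 1 slide and all 4-week BALB/c arrays on the other 2, so slide and strain cannot be told apart in these comparisons either. The SPRET/EiJ slide also held 8-week LDIR replicates B and C of BALB/c, which differ in time. On it Col20a1 was at -0.77 and -0.79 in BALB/c and -3.19 to -2.06 in SPRET/EiJ. Col23a1 overlapped, at -1.41 and -2.7 against -1.56 to 0.34. The strains were not tested within this slide.

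**Figure D3:**
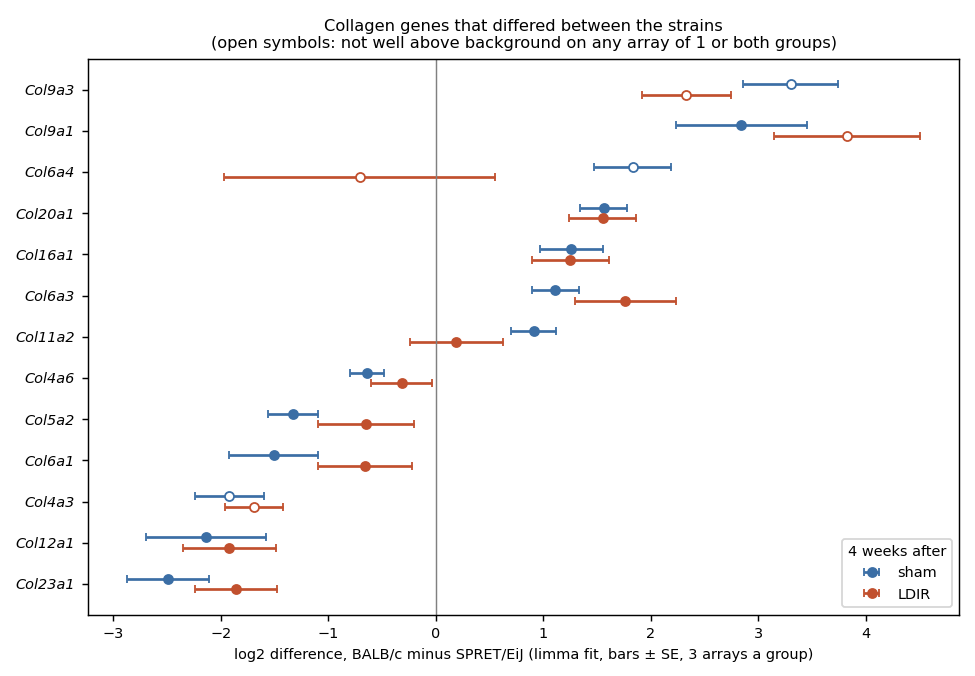
Log2 difference BALB/c minus SPRET/EiJ at 4 weeks (horizontal axis, bars ± SE) for 13 collagen genes after sham (blue) and after LDIR (orange). Open symbols mark genes that were not well above background on any array of 1 or both groups, and Col23a1 lies at -2.49 and -1.86 while Col20a1 lies at 1.56 and 1.55.

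Few collagen genes differed between LDIR and sham tissues. At 2 weeks in BALB/c, 1 gene passed the LDIR thresholds (unadjusted p under 0.05 and more than 1.5-fold), where 2.39% of all genes did, and 0 had an adjusted p under 0.05 by limma, with 3 at an unadjusted p under 0.05. The gene, which also passed the methods' t-test, was Col6a5, a type VI chain known from skin, which was above background on 0 LDIR arrays (-5.39, -5.82 and -5.58) and on 2 of 3 sham arrays (-4.29, -5.24 and -4.63). It was at least 1.78-fold lower after LDIR (difference -0.88, SE 0.27, unadjusted p of 0.0171, adjusted p = 0.869, limma). With the replicate letter as a block, its unadjusted p was 0.00603 (adjusted p = 0.731, limma). Then 2 genes passed, the other being Col17a1, the collagen of epithelial hemidesmosomes. The labels do not say what a letter stands for, so whether it pairs the mice is not known. Without LDIR replicate B no gene passed, and without sham replicate A there were 4 (Col1a1, Col3a1, Col6a5 and Col28a1). Without sham replicate C there were 3 and without LDIR replicate A there were 2.

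Col3a1 was below sham on every LDIR array at 2 weeks without reaching 1.5-fold. Its levels were 6.76, 6.74 and 6.66 after LDIR and 6.84, 7.55 and 7.37 after sham, so the groups did not overlap, as for 11.8% of all genes. The difference was -0.53 (SE 0.21, unadjusted p of 0.0438, adjusted p = 0.869, limma). Col1a1 differed by -0.35 and Col1a2 by -0.28, and in both the groups overlapped. Of the 11 fibrillar genes 3 had a fitted value above sham and 8 below, with a median difference of -0.28, against -0.16 over the 43 collagens and -0.03 over all genes. Without sham replicate B the median over the 43 was -0.01.

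At 4 weeks in BALB/c, 2 genes passed (4.53% of all genes) and 0 by limma's adjusted p, with 3 at an unadjusted p under 0.05 and 0 by the methods' t-test. Col4a4, a type IV chain, was higher after LDIR, at -1.54, -1.6 and -1.95 against -2.28, -2.73 and -1.92 after sham (difference 0.61, SE 0.25, unadjusted p of 0.0495, adjusted p = 0.775, limma), and the groups overlapped. Col9a2 was lower, at -0.12, -0.43 and -0.42 against -0.18, 0.86 and 0.81, also with overlap (difference -0.82, SE 0.31, unadjusted p of 0.0374, adjusted p = 0.775). Both rested on single mice. Without sham replicate B no gene passed, without sham replicate A 8 did, without sham replicate C 5 did, and without LDIR replicate B or C 1 did.

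Fibrillar genes had higher fitted values at 4 weeks, in 9 of 11 genes, with a median of 0.37 against 0.2 over the collagens and 0.01 over all genes. Of the 9, Col2a1 was above background on no array of either group and Col24a1 on 1. Summed fibroblast markers were 1240 to 1320 after LDIR and 1050 to 1230 after sham, and macrophage markers 50.8 to 76.2 and 25.3 to 46.6, without overlap in either. Centred in the same way as the fibrillar mean, fibroblast markers did overlap, at 0.15 to 0.67 after LDIR and -0.35 to 0.29 after sham. Centred macrophage markers did not, at 0.14 to 0.77 and -1.16 to -0.05. The part of these markers was not tested. Col5a1, the type V chain that is needed to start fibrils, had levels of 2.79, 2.87 and 2.92 after LDIR and 2.58, 1.95 and 2.43 after sham. The difference was 0.54 (SE 0.21, unadjusted p of 0.0359, adjusted p = 0.775, limma), short of 1.5-fold, and the groups did not overlap, as for 12.7% of all genes. Its partner Col5a2 also did not overlap, at 0.4, 0.14 and 0.42 against -0.08, -0.66 and 0.08 (difference 0.54, unadjusted p of 0.0595). Col1a1, Col1a2 and Col3a1 differed by 0.34, 0.37 and 0.28. No fibrillar gene passed the thresholds at 2 or 4 weeks. At 4 weeks the 3 LDIR arrays and sham replicate C lay on 1 slide and sham replicates A and B on another. On the shared slide LDIR minus sham was -0.09 for Col1a1, 0.06 for Col1a2, -0.14 for Col3a1 and 0.43 for Col5a1, with a median of 0.24 over the 11 fibrillar genes (8 above 0 and 3 below) and -0.08 over the 43 collagens. With a slide block on the 6 arrays, Col4a4 differed by 0.22 and did not pass, and Col9a2 by -1.13 and passed with Col12a1.

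At 8 weeks in BALB/c and at 4 weeks in SPRET/EiJ, 0 collagen genes passed the thresholds (1.57% and 1.77% of all genes did), 0 had an unadjusted p under 0.05 and 0 passed the methods' t-test thresholds. The 8-week groups did not overlap in 0 collagen genes, against 4.56% of all genes, and those of SPRET/EiJ in 1, against 5.53%. Differences in Col1a1, Col1a2 and Col3a1 were -0.04, -0.08 and -0.08 at 8 weeks. The SE for Col1a1 was 0.80, so a change in this gene near 1.5-fold could not have been detected there. Without sham replicate A and LDIR replicate B, both with raised lymphocyte genes, 2 genes passed at 8 weeks, Col8a1 of vessel walls and Col12a1, and leaving out either array alone, or sham replicate B, gave 1. In SPRET/EiJ the 3 differences were -0.16, -0.07 and -0.12, and all 6 type IV genes had fitted values below sham, with a median of -0.39. The low type IV values lay mainly on LDIR replicate A, the array with raised lymphocyte genes. The centred mean of the 5 type IV genes above background on all arrays was -0.81 there. It was 0.21 and 0.14 on LDIR replicates B and C and 0.06 to 0.5 after sham. Leaving out LDIR replicate B or C, or sham replicate A or C, gave 1 gene each in SPRET/EiJ (Col6a4, Col6a5, Col8a2 and Col6a5 in that order).

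The main chains of basement membranes and of type VI microfibrils also stayed short of the thresholds after LDIR. Col4a1, which pairs with Col4a2 in the common type IV molecule, differed by 0.22, 0.16 and -0.34 at 2, 4 and 8 weeks in BALB/c and by -0.41 in SPRET/EiJ. Col4a2 differed by 0.32, 0.12 and -0.21 in BALB/c and by -0.57 in SPRET/EiJ. In both genes the 2-week and 4-week values in BALB/c were above 0 and the others below, with SEs from 0.27 to 0.70. On SPRET/EiJ LDIR replicate A, with raised lymphocyte genes, Col4a1 was at 2.26, against 4.28 and 3.69 on replicates B and C. Col4a2 was at 1.71 there, against 3.46 and 3.05. Col6a1 differed by -0.12, 0.41 and -0.23 in BALB/c and by -0.44 in SPRET/EiJ, Col6a2 by 0.08, 0.08 and -0.37 and by -0.17, and Col6a3 by -0.04, 0.46 and -0.50 and by -0.19. The multiplexin Col15a1 differed by -0.02, 0.28 and -0.34 in BALB/c and by 0.18 in SPRET/EiJ, and Col18a1 by -0.16, 0.20 and -0.27 and by -0.09.

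**Figure D4:**
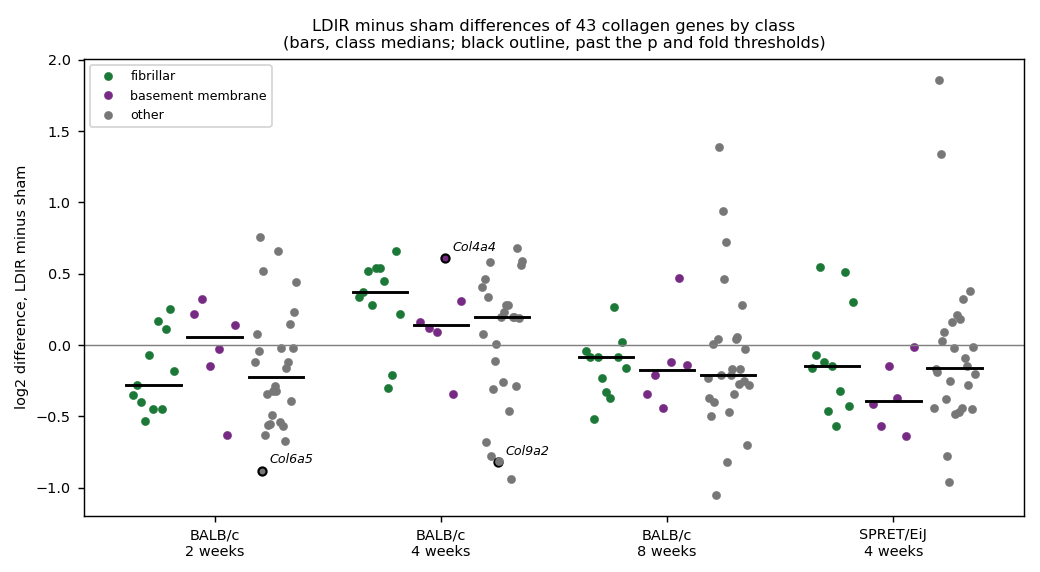
Log2 difference LDIR minus sham (vertical axis) of the 43 collagen genes in the 4 LDIR comparisons, by class (horizontal axis), with bars at class medians. The fibrillar median is -0.28 at 2 weeks and 0.37 at 4 weeks in BALB/c, and black outlines mark Col6a5, Col4a4 and Col9a2, the genes past the thresholds.

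The difference between the strains in their LDIR response passed in 1 gene, where 3.27% of all genes did. For Col4a4 the LDIR minus sham difference was 0.61 in BALB/c and -0.37 in SPRET/EiJ, where levels were -2.48, -2.16 and -2.06 after LDIR and -2.23, -1.68 and -1.65 after sham. The interaction was 0.98 (SE 0.37, unadjusted p of 0.0234, adjusted p = 0.955, limma). It was lost without BALB/c sham replicate B, BALB/c LDIR replicate A or SPRET/EiJ sham replicate B or C. With normexp background correction, and with the mean over all probes of the gene, it was lost too. In a fit of all 24 arrays with a slide block it was 0.60 (unadjusted p of 0.147) and did not pass, and 5 genes passed without SPRET/EiJ LDIR replicate B. A difference in LDIR response over the 3 times passed in 1 gene, Col6a6, a type VI chain seen on 13 arrays only (unadjusted p of 0.043, adjusted p = 1, F test of limma), where 3.24% of all genes passed. Its LDIR minus sham differences were 0.52 at 2 weeks, 0.58 at 4 weeks and -1.05 at 8 weeks, and 12 of the 18 fits that left out 1 array lost it, among them the fits without either 8-week array with raised lymphocyte genes.

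Time, from 2 to 8 weeks in BALB/c, was tested apart in sham and in LDIR mice. In sham mice 5 collagen genes passed, where 16.4% of all genes did, 4 of them higher at 8 weeks (7.82% of all genes) and 1 lower (8.62%). In LDIR mice 8 passed, where 17.4% of all genes did, 7 of them higher (6.1% of all genes) and 1 lower (11.3%). The groups did not overlap for 6 collagen genes in sham mice and 12 in LDIR mice, against 30.4% and 28.9% of all genes. By adjusted p the counts were 0 in sham mice, where 0% of all genes passed, and 1 in LDIR mice, where 2% of all genes did. At an unadjusted p under 0.05 the sham count was 5, and the methods' t-test passed 1. Col2a1, Col13a1 and Col15a1 passed in both, which is 60% of the sham and 37.5% of the LDIR genes, but Col2a1 was above background on 1 array in all. The 2-week arrays lay on 1 slide and the 8-week arrays on the other 2. In a fit of all 24 arrays with slide as a block, 2 genes passed in sham mice (Col15a1 and Col19a1) and 1 in LDIR mice (Col15a1), with 0 by adjusted p.

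Col15a1, the chain of type XV collagen in the basement membranes of vessels, fat and muscle, was the gene with the largest fall. By the probe printed above, sham mice had levels of -0.11, 1 and 1.5 at 2 weeks, and their levels at 8 weeks were -2.15, -1.94 and -1.79. In LDIR mice the levels were 0.4, 0.95 and 0.97 at 2 weeks and -1.88, -3.3 and -1.72 at 8 weeks. At each time sham and LDIR overlapped, and in both series every 8-week value lay below every 2-week value. The difference was -2.75 in sham mice (SE 0.44; adjusted p = 0.0837, limma) and -3.07 in LDIR mice (SE 0.45; adjusted p = 0.0307), or 6.75-fold and 8.42-fold lower at 8 weeks. Leaving out each array in turn gave -3.21 to -2.40 and -3.36 to -2.57, past the thresholds each time, whereas the adjusted p under 0.05 in LDIR mice held in 1 of 6 such fits, the one without 8-week LDIR replicate B.

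At 4 weeks Col15a1 had levels of 1.09, -1.89 and 0.3 in sham and 0.36, 0.12 and -0.15 in LDIR BALB/c, so 4-week sham replicate B lay among the 8-week values. SPRET/EiJ at 4 weeks had -0.25, 0.08 and -0.6 after sham and -0.95, 0.27 and 0.46 after LDIR. On the 1 slide that held both times, the 4 arrays of 8-week mice ran from -2.15 to -1.79 and the 4 arrays of 4-week mice from -0.15 to 0.36. The difference was -2.1 (exact permutation test, two-sided p = 0.0286, the smallest that 4 against 4 allows). There 3 of the 4 arrays at 8 weeks were sham and 3 of the 4 at 4 weeks LDIR, so time and treatment cannot be told apart fully. Of the 43 collagens 5 did not overlap on this slide, where 20.2% of all genes did not, and the other 4 were Col6a5 (1.25), Col13a1 (1.48), Col19a1 (-0.67) and Col27a1 (0.51).

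The 3 probes of Col15a1 did not give the same fall. The probe printed above is listed at position 2280 of the transcript, and the 2 others at positions 4542 and 4554. The latter differed by -0.52 and -0.51 in sham mice, with groups whose difference did not pass (adjusted p = 0.696 and 0.705, limma). In LDIR mice they fell, by 1.34 and 1.19 on the log2 scale (unadjusted p of 0.0262 and 0.0485, adjusted p = 0.189 and 0.247, limma). Between the strains they gave -1.71 and -2.12 in sham tissues (adjusted p = 0.0253 and 0.0214), where the probe printed above gave 0.09. Over 773 transcripts with probes at least 2000 bases apart, the median signal of upstream minus downstream probes, relative to the other arrays, was -0.04 to 0.13 at 2 weeks and -0.19 to 0.14 at 8 weeks in sham mice. In LDIR mice it was 0.14 to 0.2 and -0.18 to -0.04. At 4 weeks it was -0.24 on BALB/c sham replicate B and -0.38 on SPRET/EiJ sham replicate B. The probe printed above was at -1.89 and 0.08 on these arrays. Marker sums were also lower on the 8-week than on the 2-week arrays. They were 742 to 1790 against 1860 to 2720 for white adipocytes, 599 to 965 against 1080 to 1370 for fibroblasts and 27.1 to 38 against 38 to 53.1 for endothelium. Centred in the same way as the fibrillar mean, fibroblast and endothelium markers overlapped between the times. In sham mice they were at -0.79 to 0.4 against -0.31 to 0.26 and at -0.3 to 0.1 against -0.19 to 0.06. Centred white adipocyte markers were at -0.97 to 0.01 against 0.05 to 0.51 in sham mice. In LDIR mice they were at -1.38 to 0.17 against 0.14 to 0.55. The part of RNA quality and of these markers in the fall was not tested.

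**Figure D5:**
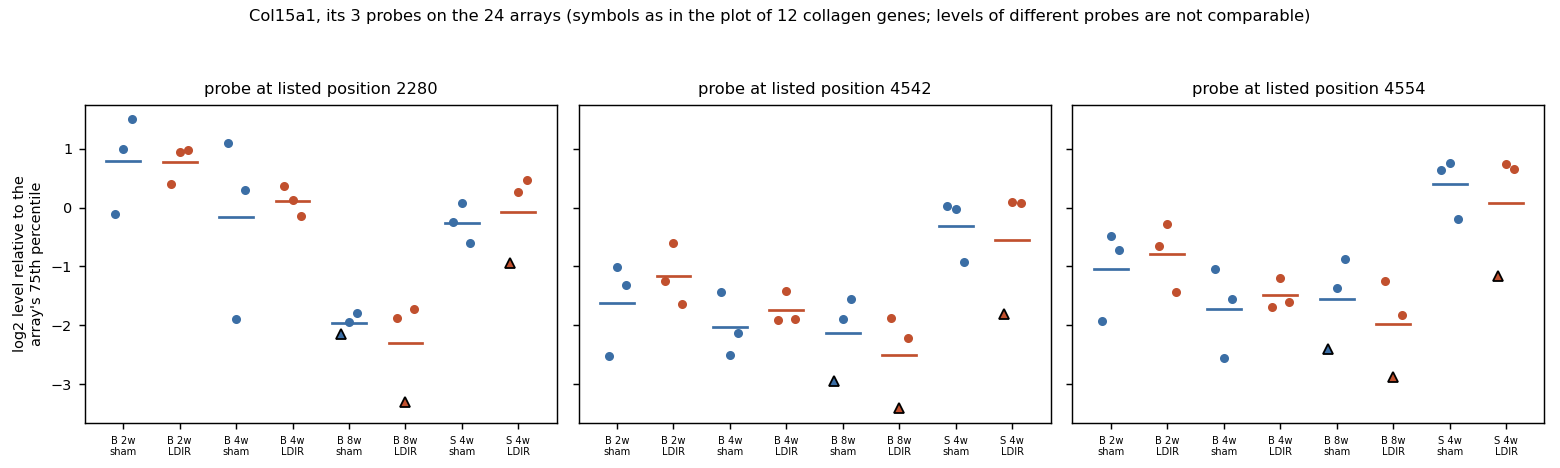
Log2 level (vertical axis) of 3 Col15a1 probes on the 24 arrays by group (horizontal axis), with bars at group means. The probe at position 2280 of the transcript lies at or below -1.72 on all 8-week arrays, while the probes at positions 4542 and 4554 change less and have their highest values in SPRET/EiJ.

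Of the membrane-spanning collagens, Col13a1 passed in both series, Col23a1 and Col25a1 in sham mice and Col17a1 in neither. Col13a1, a membrane-spanning collagen of cell adhesions, had levels in sham mice of -3.61, -3.35 and -3.82 at 8 weeks against -7.65, -4.54 and -5.23 at 2 weeks, with 1 of the 2-week arrays above background (difference 2.21, SE 0.81, unadjusted p of 0.0348, adjusted p = 0.244, limma). In LDIR mice it had levels of -3.74, -4.05 and -3.63 against -4.11, -6.12 and -5.22 (difference 1.34, SE 0.50, unadjusted p of 0.0328, adjusted p = 0.209). In neither series did the times overlap, and 1 of the 2-week LDIR arrays was above background. Of the 6 fits that left out 1 array, 3 kept the Col13a1 call in sham mice and 1 kept it in LDIR mice. It was lost without either 8-week array with raised lymphocyte genes. Col23a1 rose by 0.86 (unadjusted p of 0.0473) and Col25a1, a neuronal collagen, by 1.25 (unadjusted p of 0.0429) in sham mice. Without 8-week sham replicate A, with raised lymphocyte genes, they were 0.54, which did not pass, and 0.73, which did. Another Col25a1 probe overlapped between the times, at -3.27, -4.72 and -4.61 at 8 weeks against -4.26, -5.67 and -3.68 at 2 weeks in sham mice. With the mean over all its probes Col25a1 did not pass. The fitted values of all 4 membrane-spanning genes were above 0 in both series.

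Col9a2 and Col9a3 rose in LDIR mice. Col9a2 had levels of 2.06, 0.79 and 2.24 at 8 weeks and -0.02, -1.24 and 0.4 at 2 weeks (difference 1.98, SE 0.55, unadjusted p of 0.0102, adjusted p = 0.128, limma). Col9a3 had levels of -1.46, -2.75 and -1.16 against -3.93, -6.81 and -4.37 (difference 3.25, SE 0.82, unadjusted p of 0.0063, adjusted p = 0.104). In sham mice the differences were 1.02 and 2.21, and the groups overlapped in both genes. Col16a1 rose by 1.24 in LDIR mice with overlap (unadjusted p of 0.0412), and Col6a5 was at least 1.74-fold and Col24a1, a fibrillar gene of bone, at least 1.61-fold higher at 8 weeks. The Col6a5 value shares its 2-week LDIR arrays with the LDIR comparison above. Mammary epithelium markers, centred in the same way as the fibrillar mean, were at -0.01, 1.22 and 1.70 in 8-week sham mice. They were at -0.08, 1.1 and 1.48 in 8-week LDIR mice and between -0.73 and 0.65 at 2 weeks. Their sums overlapped, at 209 to 424 against 167 to 312 in sham and 144 to 390 against 135 to 410 in LDIR mice. The part of these markers in the rises was not tested.

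The abundant collagens were not among the genes that passed with time. In sham and LDIR mice the differences from 2 to 8 weeks were -0.32 and -0.01 for Col1a1, -0.81 and -0.35 for Col3a1, 0.22 and -0.34 for Col4a1, 0.15 and -0.38 for Col4a2, -0.31 and -0.42 for Col18a1, -0.13 and -0.24 for Col6a1 and -0.41 and -0.86 for Col6a3. Over the 43 genes the medians were 0.09 and 0, against 0.07 and -0.11 over all genes. Counts moved with the 8-week arrays that hold raised lymphocyte genes: without sham replicate A 8 genes passed in sham mice, of which 2 were among the 5, and without LDIR replicate B 13 passed in LDIR mice, of which 7 were among the 8, with Col8a1 and Col15a1 by adjusted p. In sham mice the count was also 3 without 8-week replicate B or 2-week replicate B, and 2 without 2-week replicate A.

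Genes that make, cross-link, bind and cut collagen were taken as 7 lists of 78 genes in all. Between the strains after sham, 5 of them passed the strain thresholds, 2 higher and 3 lower in BALB/c, and 14 had an adjusted p under 0.05 (5 higher and 9 lower), where 9.21% and 19.7% of all genes did. The proteases Mmp3 (stromelysin) and Mmp9 (gelatinase B) were higher in BALB/c, Mmp3 by 4.23 (adjusted p = 0.000278, limma) and Mmp9 at least 4.62-fold (adjusted p = 0.00279). Itga1 and Itga2, the collagen-binding integrin chains, and Nid2, a basement membrane linker, were higher in SPRET/EiJ, with differences of -2.25, -1.46 and -1.6 (adjusted p = 0.000937, 0.0071 and 0.00692). After LDIR, Mmp3, Mmp9 and Itga1 passed again with the same direction (3.98, 2.78 and -2.29).

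Between LDIR and sham, 1 pathway gene passed higher and 2 lower at 2 weeks, 1 higher and 1 lower at 4 weeks, 0 higher and 2 lower at 8 weeks and 0 in SPRET/EiJ, where 2.39%, 4.53%, 1.57% and 1.77% of all genes passed in these comparisons. From 2 to 8 weeks, 11 were higher and 3 lower in sham mice (7.82% and 8.62% of all genes), and 9 were higher and 2 lower in LDIR mice (6.1% and 11.3%). By adjusted p there were 2, both in LDIR mice: Fmod, a proteoglycan that binds fibrils, rose by 2.4 (adjusted p = 0.0258, limma) and Ctgf, a matricellular factor, rose by 2.78 (adjusted p = 0.0344). The growth factor Tgfb1 rose by 1.34 in sham and 1.19 in LDIR mice, and the proteoglycan Bgn rose by 1.19 and 0.78. The medians of the 78 genes with time were 0.02 in both series.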

How the data were processed

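Mammary RNA of 24 mice, 3 in each of 8 groups taken from the sample labels, was measured on 1-colour arrays, 8 on each of 3 slides. The authors deposited scanner output, in which the intensity of each spot is background-subtracted by the scanner software, and log2 values scaled in GeneSpring to the 75th percentile. Here log2 of the intensity was taken, the array's 75th percentile was subtracted and spots of a probe were averaged; 99.812% of the deposited log2 values, centred, lay within 0.01. Of 59305 spots that are not controls, 3777 outliers over the arrays were left out and 0 were saturated. The share of probes well above background ran from 57.1% to 72.6% over the arrays, and the 3 arrays in each group limit the precision.

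Each comparison was fitted on its own arrays and on all 55681 probes with limma 3.58.1 (R 4.3.3), with Benjamini-Hochberg adjustment, and figures were drawn with matplotlib 3.10.9 in Python 3.11.15. Thresholds were those of the methods: p under 0.001 between strains, p under 0.05 otherwise, both with over 1.5-fold change, and p under 0.05 for LDIR by time. Named were, in each comparison, up to 10 genes with the largest fitted change among those past its thresholds, 12 fixed chains (Col1a1, Col1a2, Col3a1, Col4a1, Col4a2, Col5a1, Col5a2, Col6a1, Col6a2, Col6a3, Col15a1 and Col18a1) and pathway genes past a threshold between strains or with time. Genes named for an adjusted p alone, for their probes or for moving together were chosen after their values were seen. A bound on a fold sets the brighter group's mean against the higher of the dim signal and the lowest signal of any probe well above background, averaged over the dim group's arrays. The limma p-values set a difference against the spread between these samples, moderated by the spread of all probes. The scripts were tested on simulated data. Probe coordinates are those of the files (mm9), and promoters are from RefSeq (GRCm38.p6); the builds were not mixed.

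The collagen list, the pathway and marker lists and the comparisons were chosen with earlier results of these data known. The lymphocyte list, the fits without 2 arrays and the comparisons within a slide were chosen after seeing the data. At 2 weeks, deviations of arrays of the same replicate letter had correlations of 0.17, 0.48 and 0.17 over 29395 probes. Between the strains after sham the values were -0.08, -0.04 and 0.26. The labels do not say what a letter stands for, so pairs were not assumed in the main fits. Alternatives tried were the authors' log2 values, quantile normalization, normexp with an offset of 50, the methods' t-test, the mean over a gene's probes, dim probes left out, outlier spots kept, a fit of all 24 arrays with or without a slide block, a block of replicate letter, and each array left out.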

Additional observations from a re-analysis of the deposited data

Results flagged for a closer look

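Col4a4 was picked out because its response to LDIR at 4 weeks differed between the strains: the LDIR minus sham difference was higher in BALB/c by 0.98 on the log2 scale (unadjusted p of 0.0234, adjusted p = 0.955, limma), and the adjusted value did not pass. In a fit of all 24 arrays with a slide block the difference was 0.60 (unadjusted p of 0.147). Col4a4 did not pass with normexp or with the mean over its probes.

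Col6a6 was picked out because its response to LDIR differed between 2, 4 and 8 weeks in BALB/c (unadjusted p of 0.043, adjusted p = 1, F test of limma), and it was well above background on 13 of the 24 arrays. It did not pass with normexp, quantile normalization or the mean over its probes, nor in a fit of all 24 arrays with a slide block.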

How the results depend on the processing

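Counts of collagen genes depended on the settings more than the direction of single genes did. Of 232 recomputed counts 120 stayed within 1.5 times the value reported and 112 did not, whereas of 154 medians over the collagens 8 moved by more than the spread between replicates, and of 599 values of named genes 3 reversed. Those 3 were Col2a1 (-0.17), Col6a5 (-0.16) and Col24a1 (-0.13) from 2 to 8 weeks in LDIR mice with normexp, all near background.

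For the strain comparison after sham, the count of 4 became 0 with the methods' t-test, 0 in all 24 arrays with slide as a block, 2 with the replicate letter as a block and 1 to 2 when 1 array was left out. The adjusted count of 13 became 7 with the t-test, 6 with all 24 arrays in one fit, 0 with the slide block and 6 to 9 when 1 array was left out. After LDIR the count of 3 became 0 with normexp, the t-test, the slide block and the replicate block, and 0 to 5 when 1 array was left out, and the adjusted 6 became 1 with the t-test, 0 with the slide block and 0 to 11.

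For LDIR at 2 weeks, 1 became 0 with normexp, without dim probes, with the mean over probes, with all 24 arrays and with the slide block, 2 with the replicate block and 0 to 4 when 1 array was left out. At 4 weeks, 2 became 1 with the mean over probes and with all 24 arrays, 0 with the t-test, the slide block and the replicate block, and 0 to 8. The count stayed at 2 with normexp (Col9a2 and Col17a1) and with quantile normalization (Col5a1 and Col9a2), but Col4a4 was lost in both. At 8 weeks, 0 became 2 with all 24 arrays, 1 with the slide block, 2 without both arrays with raised lymphocyte genes and 0 to 1. In SPRET/EiJ, 0 became 1 with the mean over probes and 0 to 1.

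With time, the sham count of 5 became 1 with normexp and with the t-test, 9 with all 24 arrays, 2 with the slide block (Col15a1 and Col19a1) and 2 to 8. By adjusted p, Col15a1 passed in sham mice with normexp and without dim probes, and Col15a1 and Col25a1 passed with all 24 arrays. No gene passed by adjusted p there in the other settings. The LDIR count of 8 became 1 with the slide block, 13 with the replicate block and 6 to 13, and its adjusted count of 1 became 2 with normexp and all 24 arrays, 0 with the mean over probes, the t-test, the slide block and the replicate block, and 0 to 2. Strain by LDIR, 1, became 0 with the mean over probes and the slide block, 2 with the replicate block and 0 to 5. With normexp the count stayed at 1, but the gene was Col5a1 and not Col4a4. LDIR by time, 1, became 0 with quantile normalization and the mean over probes, 2 with the replicate block, 2 without both arrays and 0 to 2. With normexp and with the slide block on all 24 arrays the count stayed at 1, but the gene was Col8a1 and not Col6a6. With slide as a random block in the strain comparison after sham and in LDIR mice with time, and as a block of the 6 arrays after LDIR at 4 and 8 weeks, the counts stayed within 1.5 times. The cause of these changes was not tested. Only at 2 weeks were the correlations by replicate letter above 0 for every letter, and the labels do not say whether letters are pairs. At 8 weeks these correlations were -0.56, -0.56 and 0.55, and elsewhere they were mixed. Calls lost or gained under the block can therefore not be read as a weaker or a stronger effect.

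The 3 arrays in a group limit every comparison: an exact permutation test of 3 against 3 gives no two-sided p below 0.1. Signals near background limit Col2a1, Col4a3, Col6a4, Col6a5, Col6a6, Col9a3, Col10a1, Col13a1 and Col24a1.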
